A study of Mus musculus with 6 samples.

Results

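The aminoacyl-tRNA synthetases of red cell precursors were followed between 2 stages sorted from mouse fetal liver. The genes were chosen by name: 20 enzymes that work in the cytosol, 14 that work in mitochondria and 3 scaffold proteins of the multi-synthetase complex. Of these 37 genes, 36 had at least 1 probe set assigned to that gene alone (72 probe sets in all), among 18193 such genes on the array. Dars, the cytosolic aspartate enzyme, is not analysed here, and the methionine enzyme Mars appears under its current symbol Mars1. Each gene was read from its brightest probe set by the mean over the 6 arrays. They were listed by name and not by a difference between the stages, but with earlier results of these data known.

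Livers of Balb/C embryos were dissociated, stained for the transferrin receptor CD71, for Ter119, an antigen on red cells, and for markers of other lineages, and sorted into the less mature subset S1 and the more mature subset S3. Neither subset carried an allele, transgene or treatment according to the labels. Sorts on 3 days gave 3 arrays for S1 and 3 for S3. By one label S1 came from embryonic day 12.5 and S3 from day 13.5, by another both came from day 13.5, so subset and embryo age cannot be told apart by the labels. The deposited signal is on a log scale, read here as log2, after scaling by the authors to 3 reference transcripts, and the small number of arrays limits its precision. Nothing in the labels states that different embryos were used on each day, so p-values measure the spread between these samples. Each array reads a pool of sorted cells, so fewer cells of a type and less RNA per cell cannot be told apart.

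An aminoacyl-tRNA synthetase joins an amino acid to its matching tRNA, which then carries it to the ribosome. Cytosolic and mitochondrial protein synthesis mostly use separate enzymes, all encoded in the nucleus, while Gars (glycine) and Kars (lysine) each supply both compartments from 1 gene. In the cytosol several enzymes are held in a large complex by the scaffold proteins Aimp1, Aimp2 and Eef1e1. Maturing red cell precursors make large amounts of globin and later lose their mitochondria.

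Most stage markers went with the labels of the subsets. By the test used below, 3 of 3 tested early markers were lower in S3, beside 12.8% of all genes. Of 6 late markers 4 were higher, beside 2.53% of all genes. The late markers Klf1 (log2 change 0.44 ± 0.34) and Gata1 (-0.12 ± 0.15) did not pass it. Kit, the receptor for stem cell factor, read 7.97, 6.73 and 8.35 in S1 and 0.98, 0.69 and 0.84 in S3, and Slc4a1, the band 3 anion exchanger, read 8.58, 8.42 and 9.53 in S1 and 11.35, 11.29 and 11.22 in S3. Markers of other cells were read in the same way. The summed signal of 7 megakaryocyte markers was log2 6.41 to 7.51 in S1 and 8.50 to 8.60 in S3, with 6 or 7 of them above background on each array, and these ranges did not overlap. The sums of the other lists overlapped between the subsets. That of 7 hepatocyte markers was 8.15 to 8.41 in S1 and 7.98 to 9.95 in S3 (6 or 7 above background). Its overlap rested on S3 replicate 2 (7.98), as S3 replicates 1 and 3 read 9.95 and 9.43. The sum of 9 macrophage markers was 5.08 to 6.93 and 5.39 to 6.58 (4 to 7 above background). That of 8 granulocyte and mast cell markers was 4.41 to 5.87 and 3.47 to 6.29 (1 to 4 above background). The 5 lymphoid markers summed to 3.42 to 4.14 and 3.93 to 5.02, and the 5 endothelial markers to 3.56 to 4.12 and 3.29 to 4.17. The macrophage genes Adgre1 and C1qc, the granulocyte genes Elane and Ctsg and the lymphoid genes Cd3e, Il7r and Rag1 were above background on no array. The part of these cells in the results below was not tested.

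The 6 arrays also fell into 2 classes by how far the signal of a control transcript reached toward its 5' end. The actin 5' probe set read below the 3' probe set by log2 differences of -2.59 to -2.08 on S1 replicates 1 and 2 and S3 replicate 2 (short arrays), and of -0.56 to -0.45 on S1 replicate 3 and S3 replicates 1 and 3 (long arrays). Each subset holds both classes, and counts of members are therefore also given with the class as a block.

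Few synthetase genes passed the test. In S3, 2 of 36 genes fell (5.56%), the mitochondrial enzymes Yars2 and Lars2, and 0 rose, by limma at an adjusted p under 0.05 over all 11959 genes tested. Among all genes, 12.8% were lower and 2.53% higher by the same test. At an unadjusted p under 0.05 there were 6 lower (16.7%) and 0 higher synthetase genes, beside 24.2% and 5.33% of all genes. The log2 change from S1 to S3 ran from -1.59 for Wars to 0.47 for Aars, with a median of -0.50, beside a median of -0.33 over all genes. All 36 genes read above background on all 6 arrays.

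Cytosolic and mitochondrial enzymes differed in where their changes lay. For the 19 cytosolic enzymes the median log2 change was -0.34, the same as for all genes to within 0.01, and 0 passed the test. For the 14 mitochondrial enzymes it was -0.80, which is 0.46 log2 units below the median of all genes, and 13 of 14 had a negative change. Every S3 array lay below every S1 array for 7 of 14 mitochondrial enzymes and for 4 of 19 cytosolic ones, 11 of 36 genes in all (30.6%), beside 29.5% of all genes. The reverse order held for 0 of 36, beside 5.81% of all genes. The medians are descriptions of these genes, and the difference between the lists was not tested.

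**Figure D1:**
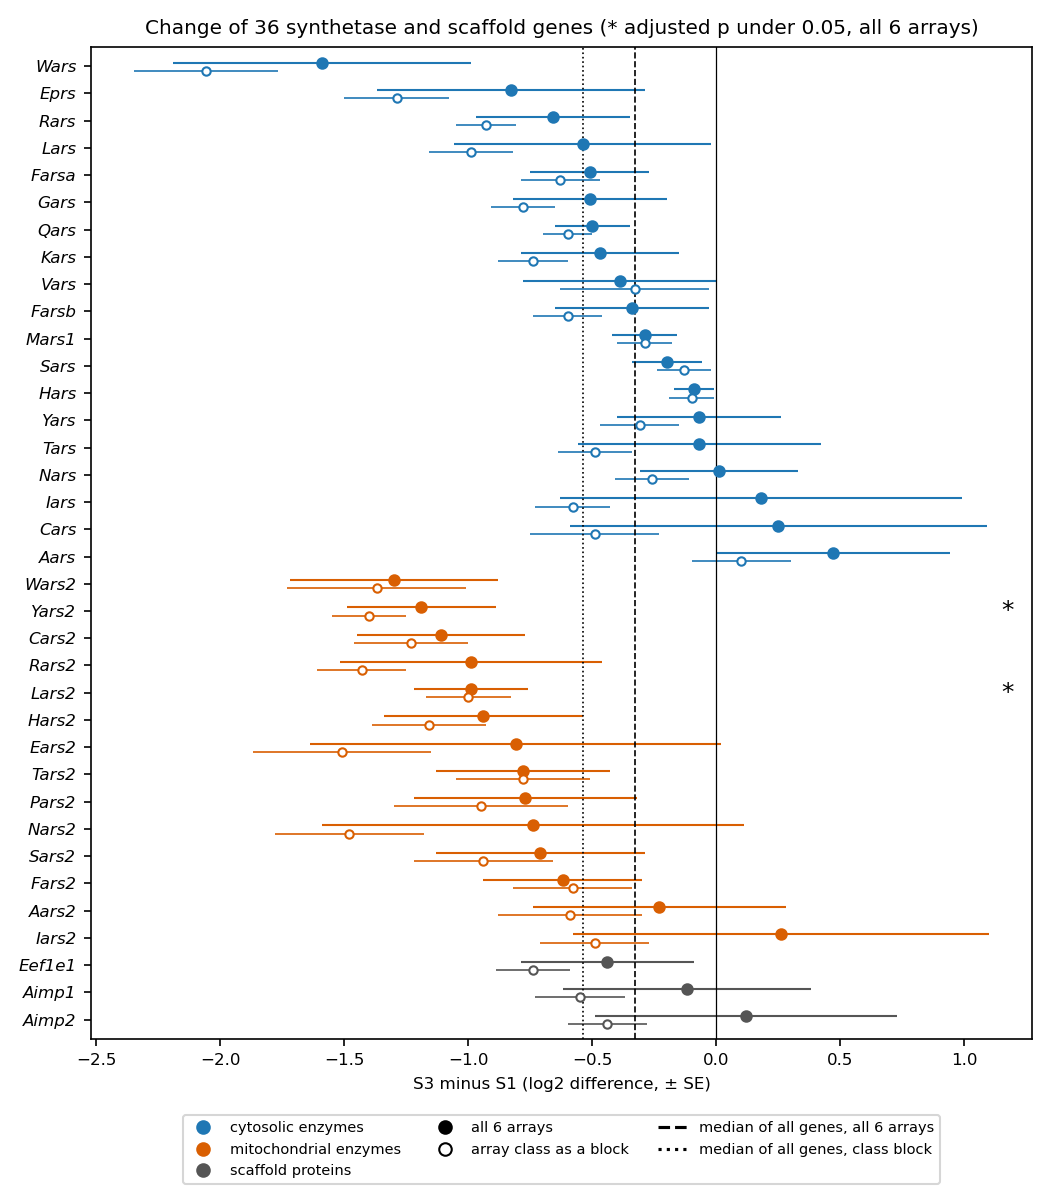
Log2 change from S1 to S3 (x axis, ± SE) of each of 36 genes, fitted on all 6 arrays (filled) and with the array class as a block (open). Asterisks mark Yars2 and Lars2, the 2 genes called on all 6 arrays; most mitochondrial enzymes (orange) lie left of the median of all genes (dashed, -0.33), and the cytosolic enzymes (blue) lie on both sides of it.

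Among the mitochondrial enzymes, Yars2, which charges tyrosine, read 8.82, 8.69 and 9.55 in S1 and 7.85, 7.52 and 8.12 in S3. The subsets did not overlap, and the fall was 2.28-fold (log2 change -1.19 ± 0.30 (SE), limma adjusted p = 0.0360). Lars2, the leucine enzyme, read 8.30, 8.49 and 8.33 in S1 and 7.31, 7.28 and 7.56 in S3. These values were among the tightest of the mitochondrial list, with SDs of 0.10 and 0.16 (n = 3 arrays each), and the fall was 1.99-fold (-0.99 ± 0.23, adjusted p = 0.0296). Leaving out any of the 6 arrays ended both calls (4.52% to 10.6% of all genes were then lower), with adjusted p from 0.0690 to 0.0962 for Yars2 and from 0.0602 to 0.116 for Lars2, while the changes stayed between -1.35 and -0.93. Median centring of the arrays also ended both (-0.86, adjusted p = 0.0829 for Yars2, and -0.66, adjusted p = 0.293 for Lars2), with 7.03% of all genes lower and 4.64% higher.

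Other mitochondrial enzymes had changes of like size without passing. Wars2, the tryptophan enzyme, read 5.40, 5.32 and 4.95 in S1 and 4.07, 3.38 and 4.33 in S3. It had the lowest change of the mitochondrial list and its subsets did not overlap (-1.30 ± 0.42, adjusted p = 0.0822). Cars2, the cysteine enzyme, read 6.80, 7.17 and 7.48 in S1 and 5.92, 5.89 and 6.30 in S3 (-1.11 ± 0.34, adjusted p = 0.0703), again without overlap. Hars2 (histidine), Tars2 (threonine) and Sars2 (serine) were the other 3 enzymes with every S3 array below every S1 array, at changes of -0.94, -0.78 and -0.71, though for Sars2 the nearest arrays of the subsets both read 5.16 after rounding. Rars2, the arginine enzyme, changed by -0.99 ± 0.53, but its subsets overlapped (7.37 to 8.91 in S1 and 6.15 to 7.48 in S3).

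In Ears2, Nars2, Iars2 and Aars2 the SD within each subset was larger than the change. Ears2, which charges glutamate, read 3.74, 3.92 and 6.40 in S1 and 4.45, 2.81 and 4.37 in S3, an SD of 1.49 in S1 (n = 3 arrays). Nars2 (asparagine) ran from 4.57 to 7.07 in S1 and from 3.38 to 5.70 in S3. In both genes the highest reading was S1 replicate 3 and the lowest S3 replicate 2. Iars2, the isoleucine enzyme, was the only mitochondrial member with a positive change (0.26 ± 0.84, adjusted p = 0.884), and read 5.52, 5.95 and 8.10 in S1 and 7.37, 5.35 and 7.64 in S3. Aars2, for alanine, changed by -0.23. Pars2 (proline, -0.77) and Fars2 (phenylalanine, -0.62) had changes above their SDs, but their subsets overlapped.

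Among the cytosolic enzymes, Hars, the histidine enzyme, was nearly flat: it read 10.46, 10.64 and 10.54 in S1 and 10.49, 10.42 and 10.45 in S3 (-0.09 ± 0.08, adjusted p = 0.553). Its signal lay near the upper end of the array (11.66), and its dimmer probe set changed by 0.70 ± 0.71 (adjusted p = 0.665 over probe sets). Wars, the tryptophan enzyme, stood apart with the lowest change of all 36 genes. It read 8.31, 7.85 and 8.96 in S1 and 7.83, 5.51 and 7.0 in S3, with every S3 array below every S1 array but an SD of 1.17 in S3 (-1.59 ± 0.60, adjusted p = 0.125). Its 3 dimmer probe sets changed by -1.37, -1.17 and -0.65. Eprs, which charges glutamate and proline from 1 protein, came next at -0.83 ± 0.54 (adjusted p = 0.372) and read 8.94, 8.30 and 9.61 in S1 and 8.74, 6.95 and 8.65 in S3, where the subsets overlapped.

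Qars (glutamine), Farsa (a subunit of the phenylalanine enzyme) and Mars1 (methionine) had smaller changes whose subsets did not overlap. Qars read 10.14, 9.92 and 10.34 in S1 and 9.71, 9.43 and 9.77 in S3 (-0.50 ± 0.15, adjusted p = 0.0716), Farsa changed by -0.51 ± 0.24 and Mars1 by -0.29 ± 0.13. At the other end, Aars, the alanine enzyme, read 7.50, 6.99 and 8.17 in S1 and 8.61, 7.17 and 8.29 in S3, and Cars, the cysteine enzyme, read 5.66, 5.37 and 7.46 in S1 and 7.50, 4.76 and 6.99 in S3. Both overlapped between subsets, with changes of 0.47 ± 0.47 (adjusted p = 0.589) and 0.25 ± 0.84 (adjusted p = 0.893). Iars, Nars, Tars and Yars lay between -0.07 and 0.18. Sars, Vars, Farsb, Lars and Rars lay between -0.66 and -0.20.

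Gars and Kars, whose products serve both compartments, had changes between the cytosolic and the mitochondrial median. This was not particular to them, as Rars (-0.66), Lars (-0.54), Farsa (-0.51), Qars (-0.50) and Vars (-0.39) also lay there. Gars and Kars themselves count in the cytosolic median. Gars read 9.61, 9.48 and 10.11 in S1 and 9.60, 8.53 and 9.54 in S3 (-0.51 ± 0.31, adjusted p = 0.344), and Kars 8.87, 8.81 and 9.49 in S1 and 9.01, 7.96 and 8.78 in S3 (-0.47 ± 0.32, adjusted p = 0.403). In each the S3 values ran into the S1 range, and S3 replicate 2 was the lowest array. With the class block their changes were -0.78 and -0.74 (limma adjusted p = 7.42e-04 and 0.00139). In that fit the median of all genes was -0.54, and 41.2% of all genes were lower. With median centring and the class block the changes of Gars and Kars were -0.17 and -0.13 (limma adjusted p = 0.548 and 0.677).

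None of the 3 scaffold genes passed the test. Aimp1 read 8.21, 8.66 and 9.70 in S1 and 9.43, 7.84 and 8.93 in S3 (-0.12 ± 0.50, adjusted p = 0.913). Aimp2 read 8.08, 8.56 and 10.02 in S1 and 9.68, 7.91 and 9.42 in S3 (0.12 ± 0.61, adjusted p = 0.932). Eef1e1 read 8.90, 9.39 and 10.08 in S1 and 9.37, 8.45 and 9.23 in S3 (-0.44 ± 0.35, adjusted p = 0.490). In all 3 genes the highest array was S1 replicate 3, a long array, and the lowest was S3 replicate 2, a short one. The 7 measured enzymes of the complex (Eprs, Iars, Kars, Lars, Mars1, Qars and Rars) had a median change of -0.50, and the 12 cytosolic enzymes outside it -0.15. Enzymes of the 2 structural classes were close to each other, with medians of -0.44 for 10 class I and -0.27 for 10 class II enzymes, Eprs counting in both.

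**Figure D2:**
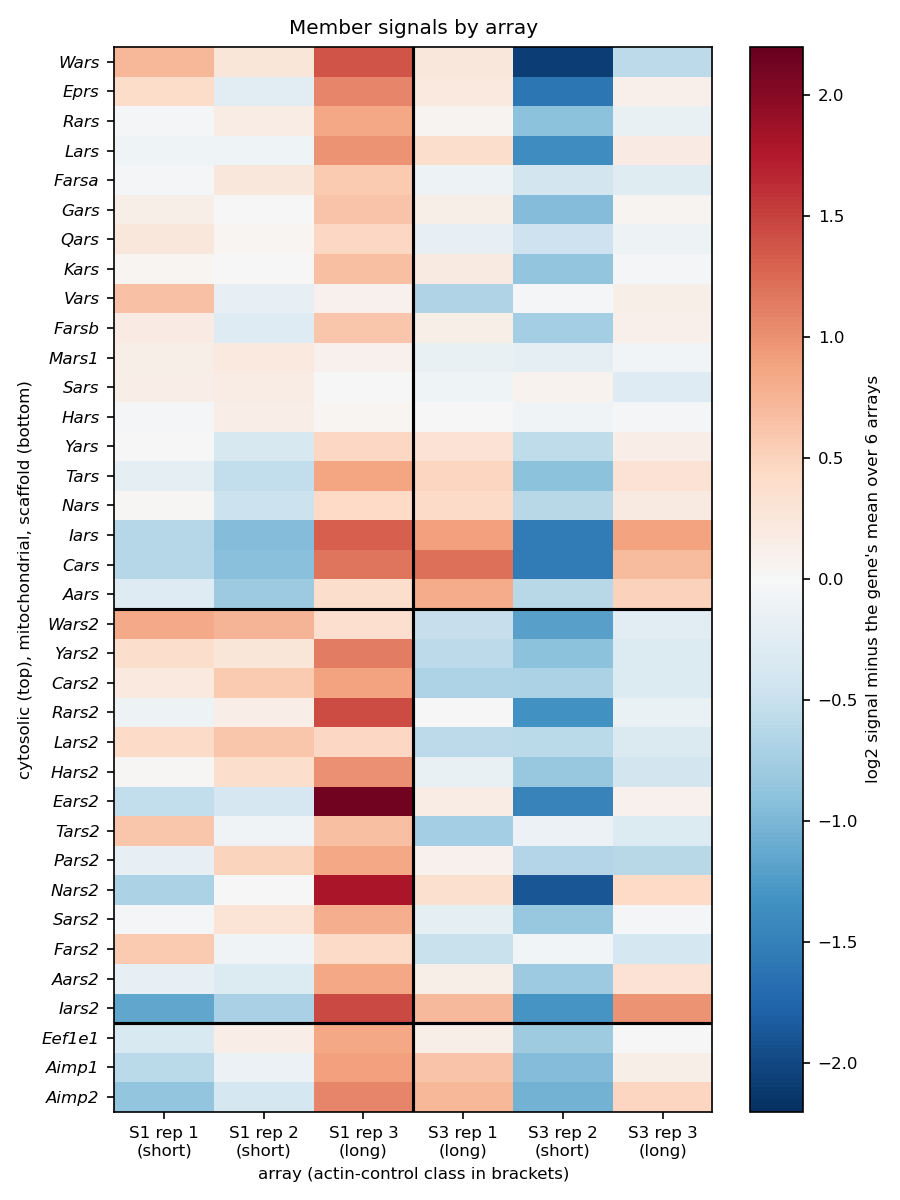
Signal of each gene on each array minus the gene's mean over the 6 arrays (log2 units, red above and blue below). S1 replicate 3 is red and S3 replicate 2 blue for most rows, and in the rows of Wars2, Yars2, Cars2 and Lars2 the 3 S1 arrays are red and the 3 S3 arrays blue.

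Much of the spread within a subset went with the array class. With the class in the model, 24 of 36 genes (66.7%) read lower on short arrays and 0 read higher at an adjusted p under 0.05, beside 37.5% of all genes lower. The short-minus-long difference ran from -2.26 for Iars to 0.22 for Sars. It was also -2.26 for Iars2, -2.22 for Cars and Nars2 and -2.09 for Ears2, genes whose arrays varied widely within each subset. It was near 0 for Lars2 (-0.04), Mars1 (0.00) and Hars (-0.02). For Hars this holds for the brightest probe set, as the dimmer one read 7.33 to 7.39 on short and 9.31 to 9.47 on long arrays.

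With this class as a block, 25 of 36 genes (69.4%) were lower in S3 and 0 higher, beside 41.2% of all genes lower and 5.81% higher. These were 11 of 14 mitochondrial enzymes, 11 of 19 cytosolic enzymes and all 3 scaffold genes. The lowest changes were those of Wars (-2.06 ± 0.29, limma adjusted p = 2.84e-04), Ears2 (-1.51 ± 0.36, adjusted p = 0.00562), Nars2 (-1.48 ± 0.30, adjusted p = 0.00218), Rars2 (-1.43 ± 0.18, adjusted p = 1.33e-04) and Yars2 (-1.40 ± 0.15, adjusted p = 6.01e-05). Iars and Aimp2, slightly positive over the 6 arrays, became negative (-0.58 and -0.44, adjusted p = 0.00880 and 0.0407), and Aars stayed the only positive member (0.10 ± 0.20, adjusted p = 0.724). The median of all genes was itself -0.54 in this fit. Relative to it the cytosolic median was -0.03 and the mitochondrial median -0.54.

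Within each class the mitochondrial median was again below the cytosolic one. On the short arrays alone (2 S1 and 1 S3) the median change was -0.60 for cytosolic and -1.03 for mitochondrial enzymes, beside -0.49 for all genes. On the long arrays alone (1 S1 and 2 S3) it was -0.46 and -1.14, beside -0.59. With 1 array on one side, these are read as values. A negative change in both classes was shared by all 14 mitochondrial enzymes, 18 of 19 cytosolic enzymes and all 3 scaffold genes. The share of all genes with this pattern was not counted. The median of all genes was also negative in both classes, and whether the pattern is particular to these members was not tested. Where the arrays were centred on their medians, which moved the median of all genes to 0.00, 12 of 14 mitochondrial but 10 of 19 cytosolic changes were negative, and with centring and the class block 2 mitochondrial and 1 cytosolic enzyme were lower and 3 cytosolic enzymes higher (15.3% of all genes lower and 15.8% higher).

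Partner enzymes for the same amino acid were then compared within arrays, by the cytosolic minus the mitochondrial log2 signal, in which a shift shared by both genes of an array cancels. The size of this difference depends on the probe sets, and only its change between subsets is read. The 15 pairs are not independent, since Eprs and Fars2 each stand in 2 of them. Of these pairs, 11 had a lower change for the mitochondrial partner and 4 for the cytosolic one, with a median change of 0.45. In 3 pairs every S3 array lay above every S1 array, and in 0 below. For tyrosine, Yars minus Yars2 was -0.71, -0.94 and -0.97 in S1 and 0.58, 0.04 and 0.14 in S3, a change of 1.12. Yars itself changed by -0.07. For histidine, Hars minus Hars2 was 4.20, 4.03 and 3.30 in S1 and 4.42, 5.03 and 4.62 in S3 (0.84). For alanine, Aars minus Aars2 was 2.80, 2.39 and 2.43 in S1 and 3.59, 3.07 and 3.07 in S3 (0.70). With the class block the partners changed by -0.31 (Yars) and -1.40 (Yars2), by -0.10 (Hars) and -1.16 (Hars2), and by 0.10 (Aars) and -0.59 (Aars2).

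Each of these 3 pairs had an exact two-sided permutation p of 0.10, the smallest that 3 against 3 arrays allow (0.50 after adjustment over the 15 pairs). Cars minus Cars2 changed more (1.36) but overlapped, from -1.80 to -0.02 in S1 and from -1.14 to 1.58 in S3 (exact permutation p = 0.30). These partners did not share the class shift, with short-minus-long differences of -2.22 (Cars) and -0.36 (Cars2). With the class block they changed by -0.49 and -1.23. Tryptophan went the other way, as both partners had low changes: Wars minus Wars2 was 2.90, 2.54 and 4.01 in S1 and 3.76, 2.14 and 2.67 in S3, a change of -0.29 (exact permutation p = 0.60). For isoleucine the pair moved by only -0.08.

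**Figure D3:**
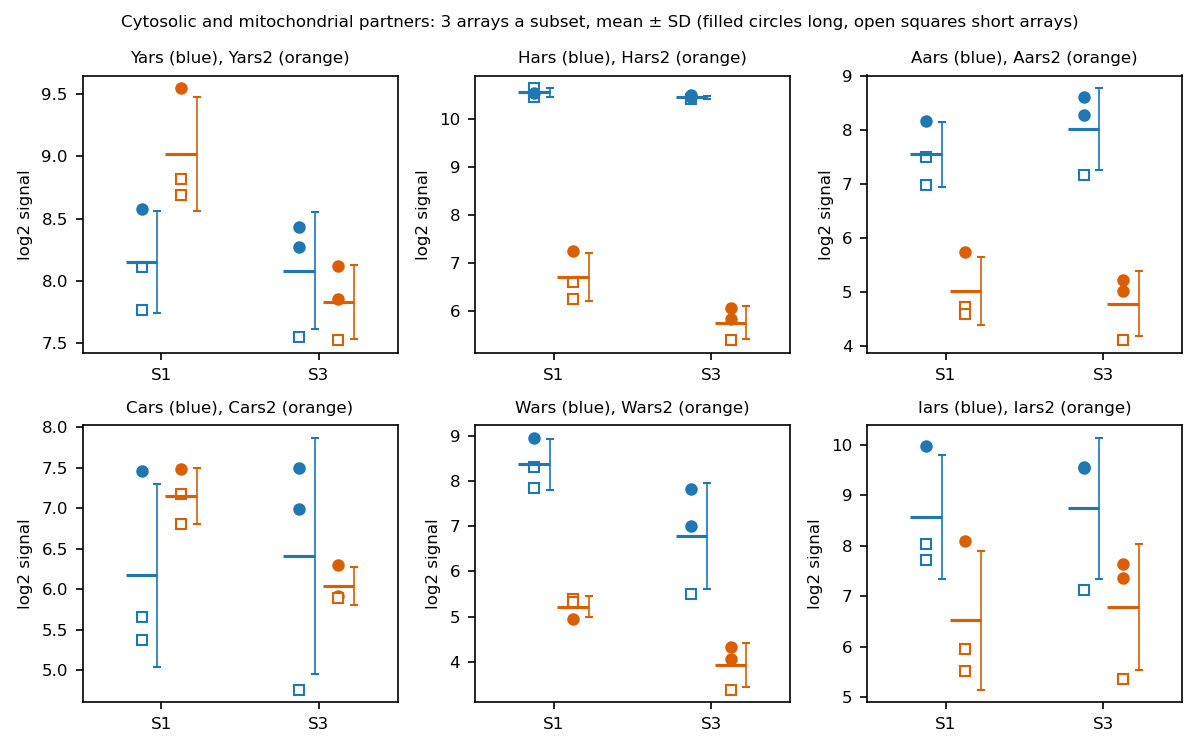
Log2 signal of the cytosolic (blue) and mitochondrial (orange) enzyme for 6 amino acids on each S1 and S3 array, with mean and SD bars (n = 3 arrays); filled circles are long and open squares short arrays. The orange points drop from S1 to S3 without overlap for Yars2, Hars2, Cars2 and Wars2, whereas the blue points overlap in each pair but Wars.

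Several cytosolic synthetase genes are known targets of ATF4, a transcription factor of the amino acid response, which binds an element with the core TGATGNAA. The RefSeq promoter table (GRCm38.p6; 250 bases before to 50 after the start) held 28 of the 37 genes: 13 cytosolic, 12 mitochondrial and 3 scaffold genes. Members were counted by gene, with a match in any of the gene's promoters, and the share of all was counted by promoter (32851 promoters of 27025 genes). On either strand the 8 letters TGATGNAA occurred for 5 of 13 cytosolic genes (38.5%), 0 of 12 mitochondrial and 0 of 3 scaffold genes, and in 3.97% of all promoters. The E-box CACGTG occurred for 4 of 13 cytosolic genes (Aars, Farsb, Iars and Tars), 1 of 12 mitochondrial ones (Ears2) and in 7.15% of all promoters. It does not overlap the other element. A match is a description of letters, not of a bound site.

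The 5 cytosolic promoters with the element, and those of Yars2 and Lars2, the called mitochondrial genes, are shown so that the sites can be compared. Each stretch runs 5' to 3' on the gene's strand from 120 bases before the start site through 30 bases from it, with matches to either motif, on either strand, in capitals. In GRCm38.p6 they lie at chr8:111033722-111033871 (+ strand), chr6:55037881-55038030 (+ strand), chr13:49682010-49682159 (+ strand), chr15:11399629-11399778 (- strand), chr4:129189783-129189932 (+ strand), chr16:16302845-16302994 (+ strand) and chr9:123366807-123366956 (+ strand), in that order.
Aars: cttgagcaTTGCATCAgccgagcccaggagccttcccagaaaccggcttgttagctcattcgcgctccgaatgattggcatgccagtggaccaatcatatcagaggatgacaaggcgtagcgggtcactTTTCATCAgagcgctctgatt
Gars: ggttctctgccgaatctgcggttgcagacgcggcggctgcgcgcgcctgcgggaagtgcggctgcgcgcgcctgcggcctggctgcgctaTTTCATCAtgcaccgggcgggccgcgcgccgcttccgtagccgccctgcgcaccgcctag
Iars: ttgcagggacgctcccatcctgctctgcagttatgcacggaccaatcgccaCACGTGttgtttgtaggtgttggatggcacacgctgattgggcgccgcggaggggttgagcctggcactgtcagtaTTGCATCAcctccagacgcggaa
Tars: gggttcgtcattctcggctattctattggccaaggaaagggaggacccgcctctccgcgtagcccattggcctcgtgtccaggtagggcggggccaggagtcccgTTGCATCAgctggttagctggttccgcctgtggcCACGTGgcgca
Yars: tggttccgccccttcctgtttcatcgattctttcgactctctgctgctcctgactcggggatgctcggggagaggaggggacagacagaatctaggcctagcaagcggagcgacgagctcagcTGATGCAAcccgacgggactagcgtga
Yars2: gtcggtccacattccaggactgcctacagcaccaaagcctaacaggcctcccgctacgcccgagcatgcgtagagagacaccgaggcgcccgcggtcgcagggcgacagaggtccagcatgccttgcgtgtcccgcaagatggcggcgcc
Lars2: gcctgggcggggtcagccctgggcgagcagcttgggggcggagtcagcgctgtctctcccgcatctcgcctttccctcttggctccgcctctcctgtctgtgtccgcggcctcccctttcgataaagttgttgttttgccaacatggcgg

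In Aars, Gars and Tars a match lay upstream of the start, beginning 112, 30 and 15 bases before it, and in Aars, Iars and Yars a match lay just inside the transcript. Iars and Tars carry the E-box in the stretch shown, and Yars2 and Lars2 carry neither motif there. The log2 changes of the 5 genes with the element ran from -0.51 (Gars) to 0.47 (Aars), with a median of -0.07. Those of the 7 measured cytosolic genes whose promoter lacks it ran from -0.83 to -0.20, with a median of -0.47. With the class block these medians were -0.49 and -0.60. A list of 13 synthetases commonly named as ATF4 targets holds all 5 genes with the element, so it is not a separate reading. Its median change was -0.20 (range -1.59 to 0.47). That of the 6 other measured cytosolic enzymes was -0.49 (range -0.66 to -0.09). With the class block the medians of these lists were -0.49 and -0.62.

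Other genes of tRNA charging and use were read from lists of the same kind. Of 15 measured charging partners, 2 fell (13.3%, beside 12.8% of all genes) and 0 rose, with a median of -0.80. With the class block 13 of 15 were lower (86.7%, beside 41.2% of all genes). The count was 0 without S1 replicate 1 (4.52% of all genes) and 1 or 2 without any other array (5.08% to 10.6%). With probe sets averaged it was 1 (8.29% of all genes). Mars2, a further mitochondrial synthetase that charges methionine, read 7.68, 7.46 and 7.59 in S1 and 5.58, 5.92 and 5.87 in S3 (-1.79 ± 0.30, adjusted p = 0.0101). Pstk, a kinase on the route to selenocysteine tRNA, changed by -1.11 ± 0.26 (adjusted p = 0.0276). Of 8 genes that bring charged tRNA to the ribosome, 1 fell (12.5%, beside the same 12.8%): the mitochondrial elongation factor Tufm, which read 9.88, 9.19 and 9.70 in S1 and 8.33, 8.50 and 8.15 in S3 (-1.26 ± 0.22, adjusted p = 0.0117). Median centring, averaging of probe sets and leaving out S1 replicate 1 each ended this call. With the class block 3 of the 8 were lower (37.5%, beside 41.2% of all genes).

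Genes that make and modify tRNA had a median of -0.88, close to those of mitochondrial enzymes and charging partners. Of 51 tested, 14 fell and 0 rose (27.5%, beside 12.8% of all genes), and 50 had a negative change. The count was 43 with the class block (84.3%, beside 41.2% of all genes). It was 9 with median centring or with probe sets averaged (17.6%, beside 7.03% and 8.29% of all genes). Without any 1 of the arrays it was 6 to 10 (4.52% to 10.6% of all genes). In each of these settings 0 were higher. Trmt61a and Trmt6, the subunits of a tRNA adenine methyltransferase, changed by -2.52 ± 0.36 (adjusted p = 0.00579) and -1.13 ± 0.16 (adjusted p = 0.00600). Trmt1, a tRNA guanine methyltransferase, changed by -1.48 ± 0.21 (adjusted p = 0.00594), and Trnt1, which adds the CCA end that synthetases need, by -1.30 ± 0.19 (adjusted p = 0.00607).

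In the amino acid response list, 4 of 24 tested genes fell (16.7%, beside 12.8% of all genes) and 1 rose, with a median of -0.10. The direction turned with the scaling. With median centring 0 were lower and 4 higher (7.03% and 4.64% of all genes). With the class block 9 were lower and 4 higher (41.2% and 5.81% of all genes). With both, 2 were lower and 11 higher (15.3% and 15.8% of all genes). The fallers were enzymes of amino acid synthesis: Psat1 (-1.03 ± 0.12, adjusted p = 0.00325), Phgdh (-1.55 ± 0.22, adjusted p = 0.00539), Aldh18a1 (-0.99 ± 0.15, adjusted p = 0.00679) and Shmt2 (-0.84 ± 0.17, adjusted p = 0.0177). Other such enzymes of the list, Psph (-0.43 ± 0.28) and Asns (0.04 ± 0.08), did not pass the test. The riser, Eif2ak1, the heme-regulated kinase, was named after its values were seen (1.07 ± 0.24, adjusted p = 0.0269). Atf4 itself, also named after its values were seen, read 9.27, 9.14 and 10.32 in S1 and 9.88, 9.32 and 10.09 in S3 (0.18 ± 0.34, adjusted p = 0.792), and the subsets overlapped.

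**Figure D4:**
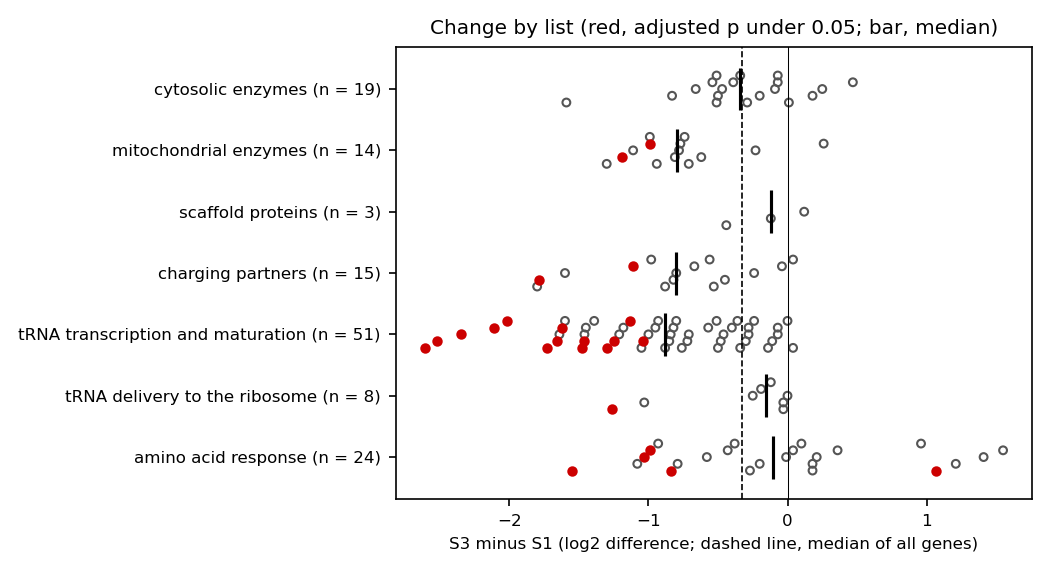
Log2 change from S1 to S3 of each tested gene by list, with called genes filled red, the list median as a bar and the median of all genes dashed (-0.33). The bars for mitochondrial enzymes, charging partners and tRNA transcription and maturation lie near -0.8, and those for cytosolic enzymes, scaffold proteins, tRNA delivery and the amino acid response lie near or above the dashed line.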

How the data were processed

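RNA of 6 sorted samples was amplified, labelled with biotin and hybridised to Affymetrix mouse arrays, per the labels' protocols. The authors computed the signals with MAS5, scaled them to probe sets of 18S RNA, beta-actin and Gapdh and deposited them on a log scale, per the design text of the series. The sources used here give no MAS5 version, scaling target or base of the logarithm; the authors' deposited signals were taken as log2 from their range. Arrays were grouped by title.

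Of 45101 probe sets, 64 were controls, 34945 had 1 symbol, 932 several and 9160 none; only those with 1 symbol were used. Symbols follow the platform annotation, and matching by gene identifier to the reference gene table (GRCm38.p6) changed 0 of them. Genes with a mean above the 40th percentile (log2 1.12) were tested, by their brightest probe set, which left 11959. The change from S1 to S3 was estimated in R 4.3.3 by limma 3.58.1 (intensity trend, 4 residual and 3.41 prior degrees of freedom, two-sided, Benjamini-Hochberg over all genes, threshold 0.05). Background is the 95th percentile of 27 bacterial control probe sets on each array. Values on every array are given for called genes, scaffold genes, Gars, Kars and, in each compartment, the brightest gene and those with the lowest and highest changes, with some others added after their values were seen; of other lists, up to 4 called genes are named. The genes, lists, tests and array classes were chosen with earlier results of these data known. Centring used the median of probe sets above the 40th percentile. The main fit did not pair same-numbered arrays, whose deviations correlated at -0.19, 0.36 and 0.43. Deviations of S1 replicate 3 also correlated at 0.40 with S3 replicate 1, another long array, and at -0.58 with S3 replicate 2, a short one. As the array class enters these values, they cannot show whether same-numbered arrays pair.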

Additional observations from a re-analysis of the deposited data

How the results depend on the processing

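The counts rest on single arrays and on the scaling. Against 2 lower members, both mitochondrial, there were 0 with median centring, 0 with each gene's probe sets averaged, 1 with quantile normalization (Yars2) and 1 with no intensity trend (Lars2), and 0 to 0 when each array was left out in turn, for members and for mitochondrial enzymes alike. Of all genes, 7.03% were lower with median centring, 8.29% with probe sets averaged, 9.4% with quantile normalization and 10.5% with no intensity trend. The filters and the added constant left 2 (7.15% to 17.1% of all genes). With the replicate number as a block, 4 members were lower, 2 of them cytosolic (Qars and Wars; 15.9% of all genes); the block changed no other call among the members, and it raised the lower counts from 2 to 5 among charging partners and from 14 to 16 among tRNA maturation genes. With the class block, 25 members were lower (11 cytosolic and 11 mitochondrial), with that block and centring 3 (1 and 2) and 3 higher, all cytosolic, on short arrays alone 10 (6 and 4), and on long arrays alone 21 (10 and 9), where the lone array of a subset is assumed to vary like the others. Of all genes, 21.7% were lower on short arrays alone and 34.7% on long arrays alone. Each of these fits has 1 array on one side, so their counts are not read as results. Signs turned to a called value for Hars (0.51) and Sars (0.48) with class block and centring, and for Iars (-0.58) and Aimp2 (-0.44) with the class block. On long arrays alone the changes of Iars and Aimp2 were -0.42 and -0.47. The cause was not tested. Of all genes, 841 were lower and 555 higher with centring, against 1533 and 302, and 4922 and 695 with the class block. All members lay above background on every array, and 3 arrays a subset limit the precision.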

Other observations

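The genes of another tRNA-modifying complex, named after their values were seen, read lower on every S3 array than on any S1 array. Mettl1, the catalytic subunit of a tRNA guanine-7 methyltransferase, read 7.36, 7.73 and 7.69 in S1 and 5.47, 5.72 and 5.27 in S3 (log2 change -2.11 ± 0.32 (SE), limma adjusted p = 0.00744). Its partner Wdr4 read 7.81, 7.87 and 8.02 in S1 and 5.42, 6.05 and 5.17 in S3 (-2.35 ± 0.35, adjusted p = 0.00667).

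Probe sets of one gene did not always read alike. Of 33 other tested probe sets of 22 member genes, 24 had the sign of the brightest one, and of 12 such probe sets of mitochondrial enzymes 11 were below 0. The dimmer probe set of Tars2 had a change of -1.34 ± 0.34 (limma, adjusted p = 0.0546 among all probe sets) and the brighter one -0.78 ± 0.36. The brighter probe set belongs to the kind (suffix _x_at) that can share probes with other transcripts, as do those used here for Fars2, Yars2, Farsb, Qars and Wars. The dimmer probe set of Yars2 changed by -1.27 ± 0.64 (adjusted p = 0.308), or by -1.83 with the class block (adjusted p = 5.30e-04). The dimmer probe sets of Lars2 changed by -0.40 ± 0.48 and -0.17 ± 0.55. A probe set assigned to both Aars and Exosc6 was not used, and which gene it reads was not tested. It read 8.20, 8.27 and 8.23 in S1 and 6.81, 6.91 and 6.83 in S3. The 2 probe sets assigned to Aars alone changed by 0.47 and 0.80.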
